A study of Mus musculus with 2 samples.

Results

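The most used splice junctions of the mouse stomach were 524 introns that together carried most of the spliced reads of this tissue. They were chosen by their reads: a junction belonged to the set when the sum of its deposited read counts R1 and R2 was at least 5000 and its length was above 100 and below 50000 bases. Of the 340787 junctions in the deposited table, 0.154% met this rule. The counts and lengths chose the members and are given here as a description, with no test.

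The tissue was stomach from C57BL/6J mice, a common inbred strain, taken from adults of 8 weeks. Males and females of the same litters were pooled. RNA above 200 nucleotides was depleted of ribosomal RNA, selected for poly(A) tails and sequenced with spike-ins as strand-specific pairs of 76 nucleotides, per the labels. The design is 1 group of 2 libraries, which the labels number as biological replicates 1 and 2, from separate tissue samples that carry 1 donor record. No treatment, genotype or other tissue was compared, so no contrast between groups exists. The columns R1 and R2 are 2 read counts per junction that the sources used here do not tie to a library, and they are therefore not called replicates 1 and 2.

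A junction read spans the point where the spliceosome has joined 2 exons after removing an intron. The intron's upstream end is the donor site and its downstream end is the acceptor site, and cells can join 1 donor to several acceptors or 1 acceptor to several donors. Competition between nearby acceptors, including acceptors only 3 bases apart, changes the messenger RNA by a few bases. The stomach mucosa makes its own digestive enzymes in chief cells, acid in parietal cells and a protective layer of mucin, gastrokine and trefoil peptides in surface and neck mucous cells. The mouse stomach also has a squamous forestomach, and a coat of smooth muscle surrounds it.

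The spliced sequences at the junctions of most reads, from exon to exon, are shown for the 3 most used genes, because these junctions alone set much of the total. Each shows the last 15 bases of an exon and the first 15 of the next from the GENCODE M21 transcript, with the last 2 exon bases and the first base of the next exon in capitals.
Pgc intron 3: agagcgaggcctgCACcacacacacccgct
Clps intron 1: cttattatcaaccTGGaggacggtgagatc
Gkn1 intron 1: gccatgaagctcaCAAtgttcgtcgtgggt
Exon ends in AG were found at 237 of 511 members matched to a gene model (46.4%), against 50.3% of the 7085 matched junctions with 500 to 4999 reads and the same lengths. The next exon started with G at 44.8% of the matched members and at 50.2% of the others. None of the 3 junctions shown combines an AG end with a G start.

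The members held 31727305 of 50833838 junction reads, or 62.4% (exact Clopper-Pearson interval 62.4004% to 62.4271%). This interval takes each read as independent and leaves out the spread between libraries. Reads were not tagged as single molecules, so it may be too narrow for counting error as well. R1 summed to 21172894 and R2 to 29660944 over all junctions, and the members held 57.5% of R1 and 65.9% of R2. Reads were spread very unevenly within the set. The median member had 8955 reads, 297 members had fewer than 10000, 200 had 10000 to 100000 and 27 had more. The 10 most used junctions took 67.7% of the members' reads and 42.3% of all junction reads in the table. By contrast, 44.1% of all junctions had a single read. At the threshold, the last members inside were in Yipf3 (5001 reads), Ndufs7 (5024) and Tagln (5035), and the first outside were in Actn4 (4998), at an unmatched junction (4998) and in D10Jhu81e (4994). Another 69 junctions reached 5000 reads but failed the length rule, 60 of them too short and 9 too long.

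**Figure D1:**
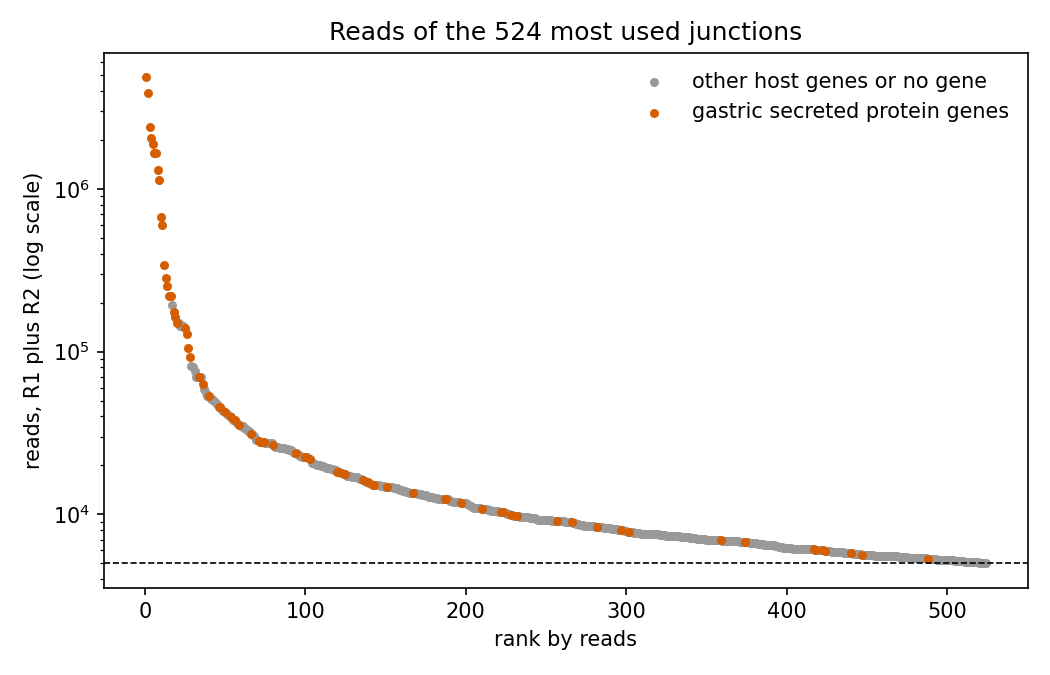
Reads of the 524 members, R1 plus R2 on a log scale, against their rank. Orange points are junctions in 18 genes of the gastric secreted protein list, which includes the surface antigen Psca. Grey points are all others, and the dashed line marks 5000 reads. The first 16 ranks are all orange, and most of the remaining 524 lie below 10000 reads.

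A total of 511 members matched an intron of a gene model and 13 did not, and the matched members lay in 283 host genes on 20 chromosomes. Of these genes 184 had 1 member, 51 had 2 and 48 had 3 or more. All but 1 host gene were protein-coding. Introns inside the coding sequence made up 444 of the 511 (86.9%), those of the 5′ untranslated region 61 (11.9%) and those of the 3′ untranslated region 5. In the junctions with 500 to 4999 reads the 5′ untranslated region held 6.48%. First introns made up 33.9% of the matched members and 19.4% of the others. If every intron of the same transcripts were used evenly, the first would make up 20.5% and 14.0%. That reckoning includes introns which the length rule leaves out, so the values among introns within the rule may differ. The members' host transcripts had a median of 7 introns against 10, and their junctions had a median length of 839.5 bases against 746. Length ran from 101 bases in Atp5b and Muc5ac and 103 in Tinagl1 to 35834 in Erp44, 37794 at an unmatched junction and 37923 at Sprr2a2. Across the 524 members log length and log reads were nearly unrelated (Pearson r = 0.036, a description over junctions that share genes and libraries).

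The genes with most member reads were Pgc and Clps. Pgc, which encodes the protease precursor progastricsin, had 8 member junctions with 16465936 reads, 51.9% of the members' reads. Its most used was intron 3 (chromosome 17, 47866319 to 47867042 on mm9, plus strand, coding), with 1734449 reads in R1 and 3109595 in R2. Intron 2 had 1258109 and 2623838, intron 7 had 791537 and 1597489, intron 8 had 677272 and 1201637, and intron 6 had 613292 and 1048220. Both columns ranked these 5 introns in the same order. Intron 1 had only 2567 and 6531 reads, so the junctions of 1 messenger RNA differed by 532-fold. Clps, which encodes colipase, a cofactor of lipase, had 2 introns with 3720936 reads in all, and with Pgc it made up 63.6% of the members' reads. Clps intron 1 (chromosome 17, 28695829 to 28697515, minus strand) had 287465 reads in R1 and 1766494 in R2, while intron 2 (28695386 to 28695705) had 641432 and 1025545. In R1 intron 1 was the lower of the pair and in R2 the higher.

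Pla2g1b, a secreted phospholipase, had 183532 and 419823 reads at intron 1 (chromosome 5, 115916330 to 115920790) and 176530 and 162010 at intron 2. Chia1, an acidic chitinase, had 8 members, from 5768 reads at intron 4 to 219122 at intron 1. Gif, gastric intrinsic factor, had 3 members with 6083 to 18081 reads. Clps and Pla2g1b are also classic genes of the exocrine pancreas, so 9 markers of pancreatic acinar cells were read in the same tables. Their junctions summed to 1737 reads, none above 198, and Cpa1, Cpb1, Pnlip, Cela3b and Amy2a5 were below a TPM of 1 in both libraries, where TPM is a gene's share of all transcripts, scaled to a fixed sum. The 9 summed to a TPM of 19.2 and 24.96, of which Ctrb1, Cel and Cela2a held the most. In R1 and R2, Cela2a had 65 and 311 junction reads, Prss2 7 and 62, Pnlip 13 and 59 and Cpa1 8 and 33. Closer were Ctrb1 with 160 and 251, Cela3b with 50 and 79, Cel with 290 and 340 and Cpb1 with 4 and 5. Amy2a5 had 0 reads. Whether these reads bear on the columns of Clps or Pla2g1b was not tested. Of the other pancreatic enzyme genes in the gastric list, Cela1 had a mean TPM of 104 and Try4 of 122, with best junctions of 3150 and 3197 reads.

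Genes of the mucous layer were also hosts. Gkn1 and Gkn2 encode gastrokines of the surface epithelium. Gkn1 intron 1 (chromosome 6, 87299279 to 87300854, minus strand) had 496586 reads in R1 and 810854 in R2, and intron 3 had 20739 and 24827. Intron 2 of Gkn1 had 36532 reads and is too short, at 90 bases, to be a member. Gkn2 had 5 members, from 17741 reads at intron 2 to 138840 at intron 4. Psca, a surface antigen of mucous cells, had 128941 and 123335 reads at intron 1 and 141705 and 141207 at intron 2, so its 2 columns were level before scaling. Tff1, a trefoil peptide, had 65878 and 83470 reads at intron 2. Muc5ac, the surface mucin, had 17 members among 48 introns, from 5653 reads at intron 3 to 53178 at intron 36, and its lowest intron was number 23 with 197 reads. Tff2, the trefoil peptide of neck cells, had the most even introns of all host genes with 3 or more introns, with 15871, 18083 and 16273 reads. Ctse, an aspartic protease, had 5 members of 5343 to 23746 reads, and Gkn3 had 3 of 5996 to 37939.

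Of the 24 genes in the list of gastric secreted proteins 18 were hosts, with 73 members and 80.0% of the members' reads. The list is broader than its name and includes Psca, a surface antigen, with 535188 member reads. Hormone genes were among the hosts: Gast had 2 members and 37221 reads, Chga 1 with 26557, and Sst 1 with 7959. Ghrl had no member because its best junction, with 9150 reads, is 95 bases long. Of the 11 acid secretion genes 5 were hosts with 21 members. Atp4a and Atp4b, the subunits of the proton pump, had 10 members of 5582 to 17257 reads and 5 of 8551 to 11199. The best junction of Atp4a, intron 20 with 28940 reads, is 95 bases long and is no member. Car2, a carbonic anhydrase, had 2, and Slc4a2, the anion exchanger, had none, its best junction of 5401 reads being 90 bases long. Of the 20 squamous genes 8 were hosts with 18 members, led by Sprr2a2 and Cnfn, both of the cornified layer. Of the 16 smooth muscle genes 5 were hosts with 17 members, led by Acta2 with 7 members of 5644 to 47613 reads and Actg2 with 6 of 5241 to 32446. Cnn1 and Flna had best junctions of 17066 and 10272 reads at 88 and 84 bases. In bulk tissue, fewer cells of a type and less RNA per cell cannot be told apart.

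Genes of general cell functions had members as well. Of 99 oxidative phosphorylation genes 28 were hosts with 53 members. Slc25a3, the mitochondrial phosphate carrier, had 81652 reads at intron 1, Cox8a had 69942 and Atp5b, a subunit of ATP synthase, had up to 49275. Of 85 ribosomal protein genes 9 were hosts with 15 members, and Rplp1 led them with 83529 and 110079 reads. Rps12 and Rpl13 had no member, at mean TPM of 1912 and 1770, with best junctions of 1294 and 679 reads. Among the iron genes Fth1 had 12545 reads, while Ftl1, at a mean TPM of 4301, had a best junction of 1989. Of the translation factors Eef2 had 3 members, and of the glycolysis genes Pkm had 2 with 78654 reads. Of the actin and tubulin genes Actb had 3 members with 24917 to 80147 reads. Mgst3, a glutathione transferase of membranes, had 5 with 19337 to 75892. Genes outside the lists numbered 182 and held 269 members but only 9.69% of the members' reads.

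**Figure D2:**
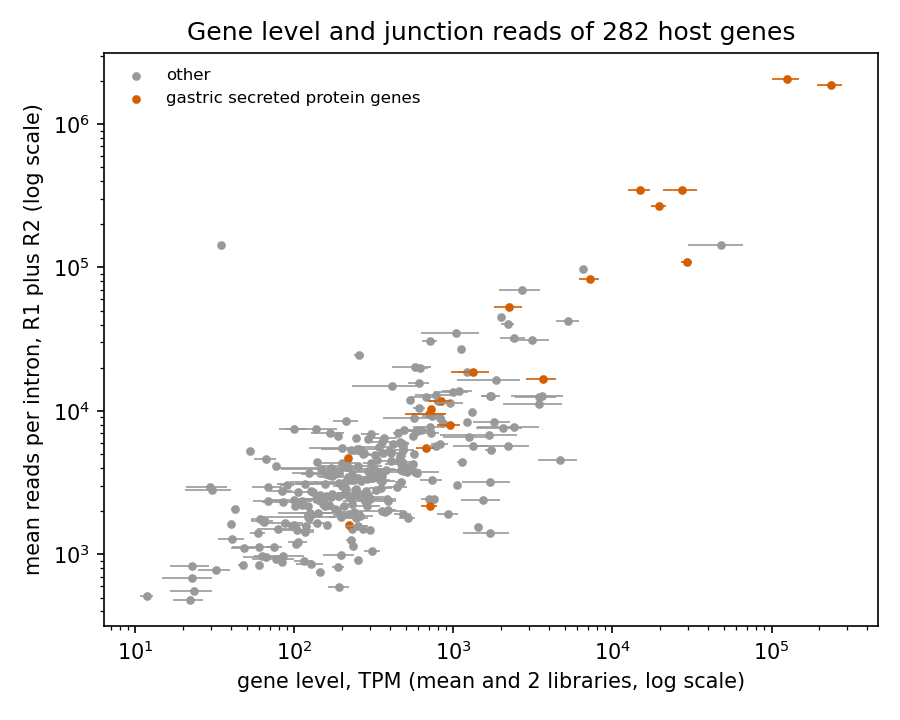
Mean reads per intron (R1 plus R2) of 282 host genes against gene level in TPM, both on log scales, with points at the mean of the 2 libraries and lines between the libraries. The orange genes of the gastric secreted protein list reach the upper right. The grey point at a TPM near 35 with 142933 reads is Sprr2a1.

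The level of the host genes was read from the gene tables, which were made on another build and with another counting than the junctions. The host genes had a median mean TPM of 282, from 11.8 to 236635. Across 282 host genes log TPM and log mean reads per intron had a Pearson r of 0.796 and a Spearman rho of 0.713. This is a description, since both come from the same tissue and a gene entered the set by its reads. The level was not a guide for single introns. Among 223 host genes with at least 3 introns, all with reads, the median coefficient of variation over the introns of 1 gene was 111%, and the median gene had 43.1 times as many reads on its highest intron as on its lowest. For 2014 genes whose best intron had 500 to 4999 reads, the values were 99.1% and 36.1. Introns of 1 gene share their RNA and are not replicates.

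**Figure D3:**
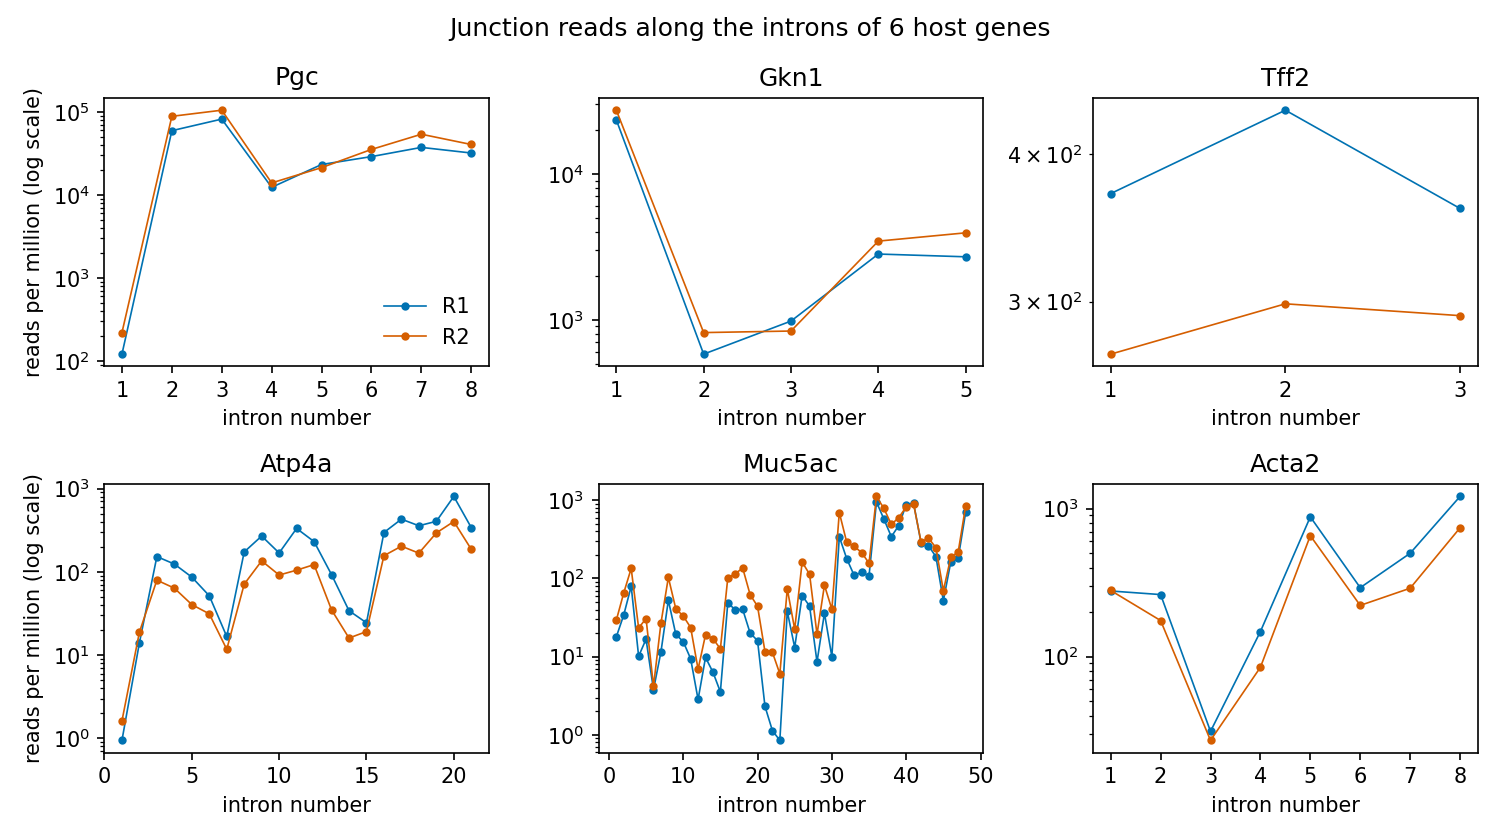
Junction reads, scaled to the total of each column (log scale), along the introns of 6 host genes, in R1 (blue) and R2 (orange), with introns numbered from the 5′ end. In Pgc the first intron lies 532-fold below the third, Tff2 is nearly level, and in Muc5ac the introns from number 31 on carry most of the reads. R1 and R2 follow similar profiles, and lie farthest apart around introns 21 to 23 of Muc5ac.

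The columns R1 and R2 were compared as the log2 ratio of R2 over R1, each divided by its total. Past 2-fold in either direction were 123 of 524 members (23.5%), against 15.5% of all 7713 junctions with at least 500 reads and the same lengths. Of these, 114 were higher in R1 (21.8%, against 14% of the 7713) and 9 were higher in R2 (1.72%, against 1.56%). The median log2 ratio was -0.52 in the members and -0.35 in the junctions with 500 to 4999 reads. When ratios were set relative to the median of the 7713 junctions instead, a shift of -0.36, 63 members were past 2-fold (12.02%), 17 higher in R2 and 46 higher in R1, against 10.8% of the background. By that scaling the members' share was close to the background. With 1 value in each column there is no replicate spread for a ratio, and the counting intervals below cover counting error only, with reads taken as independent. Across members, log2 R1 and log2 R2 had a Pearson r of 0.888 and a Spearman rho of 0.738 (n = 524). For 282 host genes, gene counts of replicate 2 over replicate 1 were set beside R2 over R1 summed over introns. These log2 ratios had a Pearson r of 0.814 and a Spearman rho of 0.821. Which column came from which library was not tested.

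**Figure D4:**
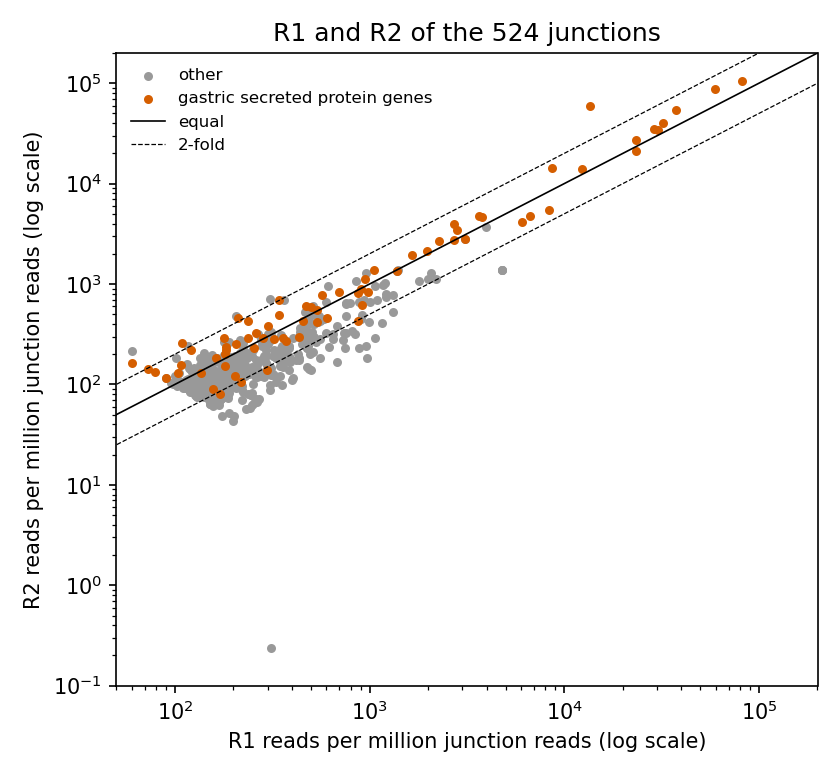
R2 against R1, each scaled to its column total, on log scales, for the 524 members. The solid line marks equality and the dashed lines 2-fold. Most grey points lie between the solid and the lower dashed line, and the orange points of the secreted list straddle the solid line. The single point at the bottom is a Lypd8 junction with 6630 reads in R1 and 7 in R2.

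The lists are described by their medians and counts, beside the 14% of the 7713 junctions that were past 2-fold higher in R1 and the 1.56% higher in R2. The 73 members in the secreted list had a median log2 ratio of 0.23, with 5 past 2-fold higher in R2 and 4 higher in R1. The 21 in acid secretion genes had a median of -0.87, with 6 past 2-fold higher in R1 and 0 higher in R2. The 17 in smooth muscle genes had a median of -0.82, with 6 and 0, and the 53 in oxidative phosphorylation genes -0.74, with 16 and 0. The 18 in squamous genes had -0.59, with 5 and 0. The 15 in ribosomal protein genes had -0.60, with 4 and 0. The 269 members outside the lists had -0.59, with 64 higher in R1 and 4 higher in R2. Relative to the shift of -0.36, the medians of the acid, smooth muscle, oxidative, squamous, ribosomal, actin and tubulin and iron lists were below the median of all junctions. Those of the other 6 lists, the secreted list among them, were above it. The actin and tubulin median, at -0.371, was nearly level with the median of -0.361 over all junctions. The iron list and the ubiquitin and redox list had 1 member each, and the list of the secretory pathway had 2. Members of 1 gene share their RNA, and these counts lean on few genes. The 6 of the acid list were Atp4a introns 8, 11, 17 and 18, Atp4b intron 3 and Ckb intron 1. In the smooth muscle list Actg2 introns 1 to 4 and intron 8 were past 2-fold, and none of the 7 Acta2 members was. The secreted list held 17 Muc5ac, 8 Pgc and 8 Chia1 members. No difference between lists was tested.

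The 5 highest ratios were Clps intron 1 at 2.13 (interval 2.13 to 2.14), Nqo1 intron 1 at 1.84 with 1281 and 6425 reads, Muc5ac intron 26 at 1.42 and intron 33 at 1.23, and Hspa8 intron 1 at 1.23 with 4388 and 14398. Nqo1 encodes a quinone reductase and Hspa8 a chaperone. The 5 lowest were Lypd8 at -10.37, Slc25a3 intron 2 at -2.41 with 20568 and 5403 reads, Fam210b intron 1 at -2.22 with 4233 and 1277, Tspan15 intron 1 at -2.07 with 5146 and 1718, and Pex7 intron 1 at -2.06 with 4254 and 1432. Within a gene the ratio also moved. In 21 of the 99 genes with at least 2 members the members' log2 ratios spanned 1 or more. Examples are Clps (2.13 and 0.19) and Pla2g1b (0.71 and -0.61). No such share over other genes is given here, so the count describes these genes alone. Gsn, which encodes the actin-severing protein gelsolin, was the 1 gene with members past 2-fold both ways, at -1.06 and 1.21.

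Most members took nearly all reads of their splice sites. The usage of a junction is its percent of all reads at the same donor or the same acceptor. At the lower of both, 431 members were at 99% or more, 52 at 95% to 99%, and 41 below 95% (7.82%), against 12.3% of the 7713 junctions. A junction's own reads enter its usage, and the rule chose members by those reads. The difference between these shares is thus partly set by the rule and is a description only. Other junctions did share their sites, however. Only 24.6% of members had a donor with no other junction, against 57.2% of the junctions with 500 to 4999 reads, and the donor of Pgc intron 3 had 53 junctions while its usage stayed at 99.9%. The members also have more reads in which a rare junction can be seen, and the part of depth in this difference was not tested.

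Some members shared their donor with an acceptor 3 bases away. At 9 members a second acceptor 3 bases downstream took at least 1% of the reads of the pair. Of these 9, 8 matched a gene model, and in all 8 the next exon began with a base followed by AG, so that the downstream acceptor lies right after an AG. The spliced sequences are shown because they hold these 3 bases, printed in capitals after the last 15 bases of the exon before. Where the downstream acceptor is used, those 3 bases are left out of the messenger RNA.
Ssr4 intron 1: tatcttgctgctcagCAGaggcctgcctgg
Fkbp8 intron 4: cggcccccagggcagCAGgagcccatacat
Pla2g1b intron 1: ctgctctgctcacagCAGgcgctgctgcac
Aes intron 6: aactccatcatccgaCAGcagctccaggct
Tff1 intron 2: agaacactcaagaagAAGaatgtcccttct
Krtcap2 intron 1: gacggggcgtgatggTAGtcggtaccggga
Atox1 intron 1: gcgtcagtcatgccgAAGcacgagttctcc
Gkn2 intron 5: tggctacaaagccaaAAGaggtgagcactg
Clps intron 1: cttattatcaacctgGAGgacggtgagatc
Pgc intron 8: tcctacatcatccagGAGgaaggctcctgc
Clps and Pgc are added as junctions whose next exon begins with GAG and whose downstream acceptor stayed below 1%.

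The share on the downstream acceptor varied with the first of the 3 bases, with some overlap between starts. All 4 members with a next exon starting CAG passed 1%: Ssr4, a subunit of the translocon-associated complex, at 21.6% (interval 20.7% to 22.5%), Fkbp8, a prolyl isomerase, at 17.2%, Pla2g1b at 9.44% and Aes, a transcriptional co-repressor, at 6.57%. The 1 member starting TAG, Krtcap2, stood at 4.59%, within the range of the AAG starts. Of the 6 starting AAG, 3 passed 1%, namely Tff1 at 5.52%, Atox1, a copper chaperone, at 1.29% and Gkn2 at 1.17%. Of the 15 starting GAG none passed, and the highest was 0.145%. Of the 485 matched members with any other start none passed, and the highest was 0.0931%. The rule did not choose the junctions with 500 to 4999 reads. By the percent that passed 1%, CAG and TAG starts were above AAG there, and AAG above GAG. Their highest single share was 61.0% at a TAG start and 57.8% at a CAG start. There the downstream acceptor passed 1% at 37 of 45 starting CAG (82.2%), 8 of 11 starting TAG (72.7%), 8 of 30 starting AAG (26.7%), 4 of 219 starting GAG (1.83%) and 1 of 6780 others (0.0147%). The letters are a description of these exons. The intron sequences on mm9 were not used here, so whether the first acceptor itself follows CAG was not tested.

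Shares on the downstream acceptor were of similar size in both columns, with Pla2g1b and Fkbp8 the farthest apart of the 5 given. Ssr4 had 21.3% in R1 and 21.8% in R2, Fkbp8 16.4% and 18.5%, Pla2g1b 10.8% and 8.82%, Aes 6.43% and 6.75%, and Tff1 5.51% and 5.52%. In Pla2g1b the downstream junction was itself a member, with 22315 and 40591 reads beside the 183532 and 419823 of the upstream one. The transcript tables assigned 17.7% and 14.1% of the TPM of Pla2g1b in replicates 1 and 2 to transcripts with the downstream acceptor, above the share by junction reads.

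**Figure D5:**
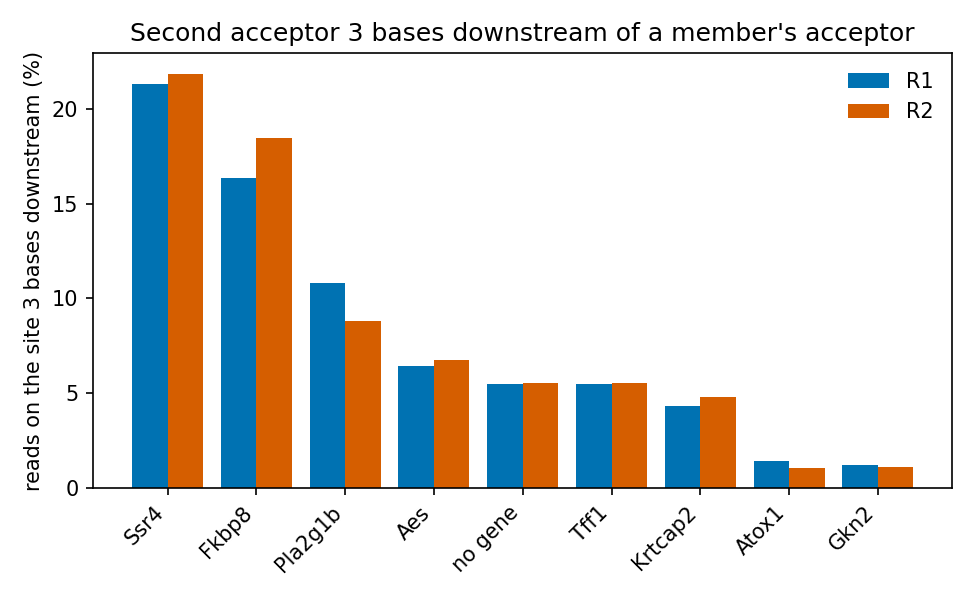
Percent of reads on the acceptor 3 bases downstream, of the pair, for the 9 members at which it reached 1%, in R1 (blue bars) and R2 (orange bars). Shares run from 21.6% for Ssr4 to 1.17% for Gkn2, and the bars of each pair are of similar height. The bar labelled no gene is the chromosome 5 locus with reads near-equal to Tff1.

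Other members of low usage had competing sites at many distances. At Atp5g3, a subunit of ATP synthase, the competing donor lay 10 bases away and the member took 80.7% of the acceptor's reads, and at Pdcd6ip it lay 9 bases away and the member took 89.8%. Lypd8, a member of the Ly6 family, joined 1 donor (chromosome 11, at 58192601 on mm9) to an acceptor 3186 bases away in 12968 reads of R1 and 28262 of R2, and to one 546 bases away in 6630 reads of R1 and 7 of R2. The downstream exon end of the nearer choice continued to the shared acceptor in 492 reads of R1 and 0 of R2. Transcripts with the nearer acceptor held 38.8% of the gene's TPM in replicate 1 and 0.0711% in replicate 2, while the gene as a whole stood at a TPM of 1078 and 1139. The gene's TPM was thus alike in both libraries, while the share of the transcripts with the nearer acceptor was not. Over the 5 introns of transcript Lypd8-202, R1 and R2 summed to 47519 and 88157 reads. Cnfn, a component of the cornified envelope, split a donor between acceptors 557 and 1188 bases away. The nearer had 19805 and 20531 reads in R1 and R2 and the farther 24657 and 12097, so the order of the 2 choices turned between the columns. Uqcr10, of the respiratory chain, sent 84.1% of its donor's reads to an acceptor 1936 bases away and 15.8% to one 167 bases away. Aldoa, an enzyme of glycolysis, took 74.4% of the reads at an acceptor shared with a donor 957 bases off, and Pkm, the last enzyme of glycolysis, took 87.7% of its donor's reads.

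Near-equal counts marked gene copies. A total of 17 members, with 994613 reads (3.13% of the members' reads), had read counts within 10% of another member that shared a splice site, or within 2% of one of the same length elsewhere. Tff1 intron 2 had 149348 reads and a junction of the same length on chromosome 5 (143285775 to 143286835), matched to no gene, had 149329. Their neighbours had 69421 and 69419, and the 3-base alternatives 8721 and 8722. At the Sprr2a cluster, whose genes encode small proline-rich proteins of the cornified layer, 3 junctions had 142933, 142913 and 142773 reads, 1 of them joining a donor of Sprr2a1 to an acceptor of Sprr2a2 37923 bases away. Hba-a1 and Hba-a2, alpha globin genes, had 7710 and 7548, with 7546 on the junction between them. Tuba1b and Tuba1a, alpha tubulins, had 6383 and 5690, with 6203 between. Reads cannot be assigned to 1 copy from these counts, so usage and level at these 17 are uncertain. Without them 26 members were below 95% usage, where 41 were with them. Sprr2a1 shows the same limit: its TPM was 34.1 and 35.3 while its junction had 142933 reads. Sprr2a2 had a TPM of 65818 and 29922. The 26 members of low usage outside the 17 may hold shared reads as well. Krt19 intron 5, at 73.5% of its acceptor's reads, competed with junctions of 63256 to 123761 bases. Those of 88538 and 105934 bases both had 654 reads in R1 and 424 in R2. A Gsta1 junction took 52.4% of its donor's reads, beside junctions of 27277 and 63636 bases. Whether these are copies was not tested.

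The 13 members without a gene model are described by place. The 5 with most reads were the 2 chromosome 5 junctions above, one of 35093 reads from the Sprr2a2 donor to the Sprr2a3 acceptor, one of 14961 reads (chromosome 6, 52635420 to 52663813) and one of 14571 reads at splice sites of Chchd2 (chromosome 5, 130360055 to 130363067). A further 5 members lay 1 or 2 bases away from the place of a gene model's intron of the same length. They were in Slc25a3, Tmbim1, Sdhd, Spint2 and Dmkn, and the Slc25a3 junction had 81652 reads. Of the members, 507 carried the value 1 in both of the name's fields A and C and 8 carried 0 in both, and the meaning of these fields is not given in the sources used here.

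At some members the transcripts holding the intron had a low share of the gene's TPM. Transcripts holding the intron took at least 90% of the gene's TPM in both libraries at 416 of 509 members. At 27 they took less than 50% in both. No such shares over other junctions are given here, so these counts describe the members alone. For the proton pump subunit Atp4a, 5 of its 6 members among the 27 lay on transcripts with 21.2% and 26.9% of the gene's TPM. Members in the ATP synthase subunit Atp5b and in Hspa8 and Car2 were among the 27 as well, and a Gsn junction with 16882 reads lay on transcripts at 0% in both. Transcripts holding an intron were taken from GENCODE M21, while the TPM was estimated on GENCODE M4 models. An M21 transcript absent from M4 adds no TPM, and an M4 transcript absent from M21 counts as lacking the intron. Low shares, the 0% of Gsn among them, can therefore reflect the releases, which was not tested. At 33.0% of members the deposited contig signal ran across the intron without a break, against 22.7% of the junctions with 500 to 4999 reads, and signal beside the donor had a median of 164 against 27.9. Log signal and log reads had a Pearson r of 0.620 over 518 members, which share the same RNA, as a description.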

How the data were processed

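The authors deposited counts of reads per splice junction on mm9, and each count equalled R1 plus R2 in the junction's name. The same table carries a significance field and a ninth field that no source used here defines. The authors deposited a contig signal on mm9, whose scale is not stated. Per library, the authors deposited expected counts, TPM and FPKM per gene and transcript and the percent of its gene each transcript holds, on mm10 with GENCODE M4 models, per the README of the files. The aligner and the junction caller: not given in the sources used here.

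Junctions were matched to GENCODE M21 introns by length and spacing, with at least 2 introns of a gene at 1 offset. Introns left over were matched at an offset that the nearest matched genes on both sides shared. Where these differed, the offset of either served if both lay within 1 Mb. Last, a junction could lie within 10 bases of the place given by its gene's offset. No coordinates were converted. A gene's reference transcript was chosen among those with at least 99% of the best junction reads. Ratios, usage and intervals (Clopper-Pearson, 95%) were computed in Python 3.11.15 with scipy and pandas. Exon sequences came from M21 transcripts. On simulated data drawn for R1 against R2 over 7713 junctions, 100% of 200 junctions changed 3-fold passed the 2-fold limit. These columns differed only by counting error and the set changes, so the spread between the real columns was not tested. Of 16150 simulated introns, 99.23% matched their own intron. These introns lay on only some chromosomes and kept their exact lengths, so changes of intron length between builds were not simulated.

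With 1 group, no test between groups was run. Members, gene lists and rules were chosen with earlier results of these data known. Named junctions followed a rule: the 15 of most reads, genes with at least 3 members (the main ones are given), the 5 highest and 5 lowest ratios, low usage, unmatched, shortest, longest and nearest to 5000, and the leading genes of each list. Introns without GT and AG ends could not be named, because no mm9 genome was used. The pancreatic markers and the other genes outside this rule were chosen after their values were seen.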

Additional observations from a re-analysis of the deposited data

How the results depend on the processing

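The alternatives changed 1 choice at a time, except that R1 or R2 alone was read with a minimum of 2500. With a minimum of 10000 reads the set held 227 junctions, while a minimum of 4000 gave 691, no limit on length 593, R1 alone 559 and R2 alone 523. The share of junction reads was 67.0% with only junctions of 100 to 50000 bases as the total, and 57.5% to 65.9% in R1 or R2 alone. Past the limit between R1 and R2 were 12.02% of members when scaled to the median of junctions with at least 500 reads, and 49.0% (background 38.8%) with a 1.5-fold limit. Members below 95% usage numbered 26 without the members of near-equal gene copies, an alternative chosen after seeing the data, and 40 and 41 under the limits on competitors. Below 90% usage there were 32. Matches numbered 495 to 511, the inner introns alone had a median coefficient of variation of 92.3%, and the host genes' median TPM was 246 to 316 when either replicate was left out. No paired analysis was possible because there is only 1 group. Depth limits how small a share of a second acceptor can be seen, and its effect on these shares was not tested.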
